A study of Mus musculus with 8 samples.

Results

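The surrogate light chain genes Igll1, Vpreb1, Vpreb2 and Vpreb3 were followed in mouse progenitors that lack EBF1 and received a retrovirus with Ebf1-H240A, with Ebf1wt or with no Ebf1. They are 4 of the 27333 gene names on the array. Every probe whose annotated gene is one of these 4 genes was taken, which gave 6 of the 41174 non-control probes on the array: 2 for Igll1, 1 each for Vpreb1 and Vpreb2, and 2 for Vpreb3. All 6 passed the filter on dim probes and were among the 24983 probes tested.

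All groups came from c-Kit+ fetal liver cells of Ebf1-/- mice on the C57Bl/6 background. The cells were grown on OP9 cells, a mouse stromal line that supports lymphoid development, with interleukin 7 at 5 ng/ml, Flt3 ligand at 10 ng/ml and stem cell factor at 10 ng/ml. The retroviruses were pMys vectors that also encode GFP. They carried Ebf1-H240A, in which an alanine replaces a histidine of EBF1 (3 arrays), Ebf1wt (3 arrays) or no insert (Empty, 2 arrays), and GFP+ cells were sorted 36 h after transduction. EBF1 was thus supplied from a retroviral vector to cells that lack their own, and the readings describe a short time after its return. Nothing in the labels tells if replicates were separate cultures or animals, and p-values here speak of the spread among these arrays, possibly technical. From earlier work, the Ebf1-H240A protein binds CNOT3 poorly, and CNOT3 belongs to the CCR4-NOT complex that acts in mRNA decay and transcription.

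Igll1 encodes lambda5 and Vpreb1 and Vpreb2 encode VpreB, which join to form the surrogate light chain. This chain pairs with the newly made immunoglobulin mu heavy chain before any conventional light chain exists, and with the signalling proteins CD79A and CD79B it makes up the pre-B cell receptor, through which a pre-B cell tests its heavy chain. Vpreb3 encodes a related protein that stays inside the cell and associates with mu chains. The transcription factor EBF1 is needed for B-lineage development, and genes of the surrogate light chain are among its known targets.

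Each probe is a 60-base oligonucleotide placed by the array annotation on mouse build mm9, and 4 of them are shown because the readings of their genes differ between probes or depend on near-identical copies. They are written in lower case on the strand of the transcript, and no base is marked. The brighter Igll1 probe, A_52_P493519, lies at chr16:16861104-16861163 on the minus strand. The dimmer, A_52_P273394, lies at chr16:16862273-16862332 on the minus strand and lists no RefSeq accession. The Vpreb2 probe, A_52_P222003, lies at chr16:17980689-17980835 on the plus strand, a span of 147 bases that leaves a gap of 87 bases unmatched. The Vpreb3 probe A_51_P375789 lies at chr10:75412043-75412102 on the plus strand.
Igll1 (A_52_P493519): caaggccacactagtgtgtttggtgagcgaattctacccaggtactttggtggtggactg
Igll1 (A_52_P273394): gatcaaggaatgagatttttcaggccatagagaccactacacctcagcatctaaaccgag
Vpreb2 (A_52_P222003): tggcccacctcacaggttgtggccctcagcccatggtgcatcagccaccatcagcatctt
Vpreb3 (A_51_P375789): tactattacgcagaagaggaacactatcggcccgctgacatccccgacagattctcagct
The Vpreb1 probe, A_51_P400217, lies at chr16:16868559-16868618 on the minus strand, and the other Vpreb3 probe, A_52_P433847, at chr10:75412265-75412324 on the plus strand. The exon in which each probe lies was not annotated here. Igll1 and Vpreb1 are neighbours on chromosome 16, Vpreb2 lies farther along the same chromosome, and Vpreb3 is on chromosome 10.

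The arrays were alike in quality. Detection was close on all of them, with 54.6% to 59.7% of probes well above background, and replicates correlated at r = 0.990 to 0.995 over the probes tested. The lowest signal called well above background was between 2.06 and 3.03 on the log2 scale, which limits what can be read from dim probes. Of 2 Ebf1 probes, the brighter read between 10.10 and 10.44 on all 8 arrays, Empty included, and neither was called different between any groups, so these probes do not check the labels. In bulk RNA of this kind, fewer cells that express a gene and less RNA per cell cannot be told apart.

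With Ebf1-H240A, Vpreb1 and Vpreb2 stayed far below their level with Ebf1wt, and Igll1 was lower to a smaller degree. Vpreb1 in Ebf1-H240A cells was 8.22% of its level in Ebf1wt cells (95% interval 6.24% to 10.8%), Vpreb2 8.53% (5.93% to 12.3%) and Igll1 34.2% (27.2% to 43.0%) by its brighter probe. All 3 genes were still far above the level in Empty cells. Of the 6 probes, 4 were called lower with Ebf1-H240A than with Ebf1wt (limma, Benjamini-Hochberg adjusted p under 0.05 over all probes), against 2.21% of all probes tested called lower, 3.06% called higher and 5.28% called in either direction. The other probes, both of Vpreb3, were not called.

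**Figure D1:**
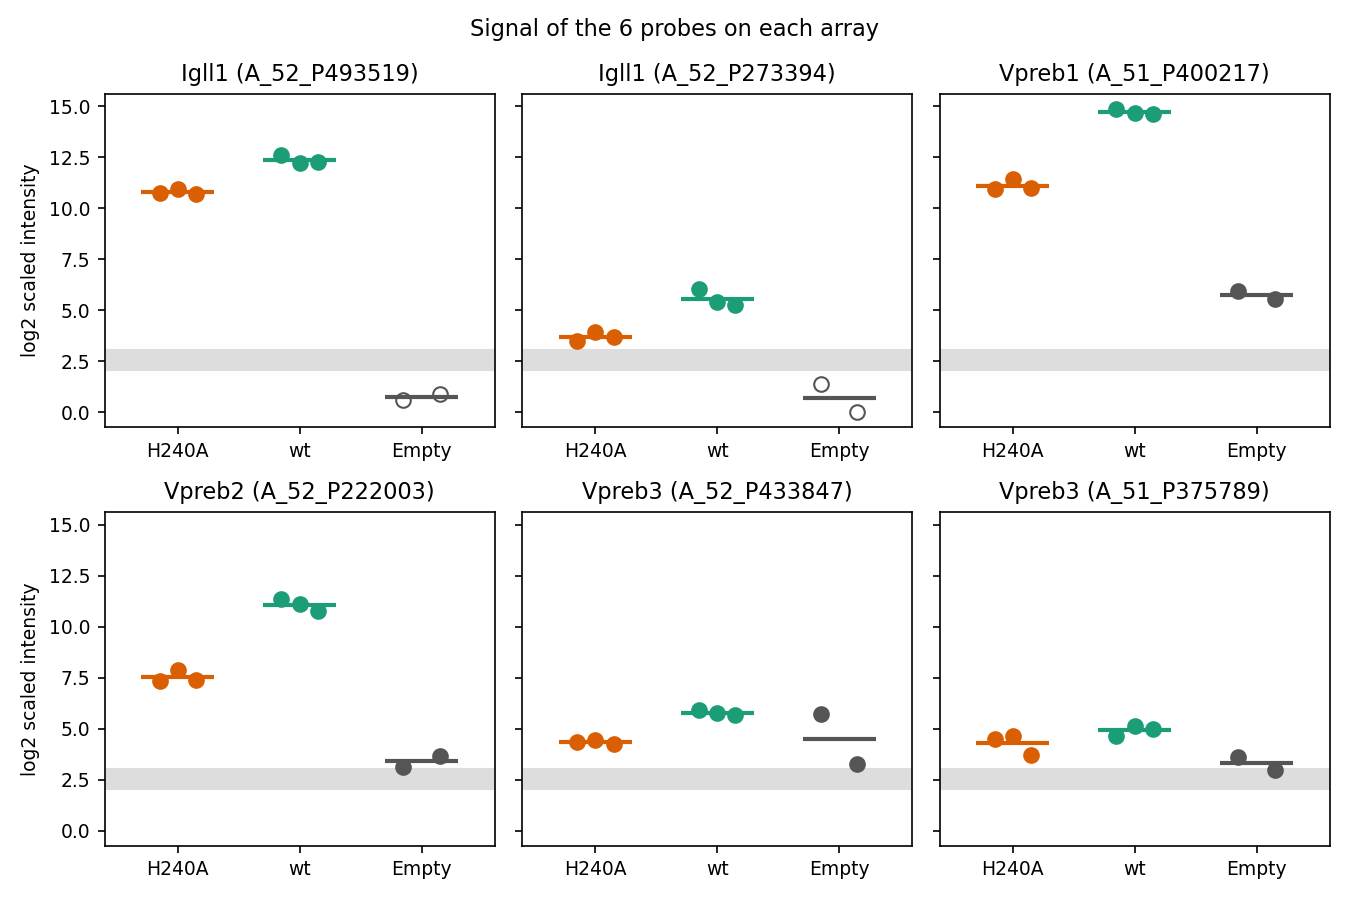
Signal of each surrogate light chain probe on every array, as log2 of the scaled intensity (vertical axis), for Ebf1-H240A, Ebf1wt and Empty from left to right. Points are arrays, open points are readings not well above background, bars are group means, and the grey band spans the lowest signal called well above background (2.06 to 3.03 over the 8 arrays). For Igll1, Vpreb1 and Vpreb2 the 3 groups form separate levels with Ebf1-H240A between Ebf1wt and Empty, while the Vpreb3 points lie close together.

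Vpreb1 had log2 signals of 10.93, 11.42 and 10.96 in Ebf1-H240A cells, 14.88, 14.65 and 14.60 in Ebf1wt cells, and 5.92 and 5.53 in Empty cells. No array of one group reached the range of another, and the gap between Ebf1-H240A and Ebf1wt was many times the spread within either. Of all probes tested, 12.2% had every Ebf1-H240A array below every Ebf1wt array, 30.1% had every Ebf1-H240A array above both Empty arrays, and 25.2% had every Ebf1wt array above both. The difference of Ebf1-H240A from Ebf1wt was -3.60 ± 0.17 on the log2 scale (SE, limma, adjusted p = 0.000863). It was the largest decrease among the 24983 probes tested in that comparison under the main processing. Against Empty, Vpreb1 was 41.6-fold higher with Ebf1-H240A (log2 difference 5.38 ± 0.19, limma adjusted p = 4.14e-06) and 507-fold higher with Ebf1wt (8.98 ± 0.19, adjusted p = 7e-07). Vpreb1 was well above background on both Empty arrays, so cells without Ebf1 gave a low but measurable Vpreb1 signal.

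Vpreb2, the near-copy of Vpreb1, followed it closely. Its log2 signals were 7.35, 7.85 and 7.39 in Ebf1-H240A cells, 11.37, 11.09 and 10.78 in Ebf1wt cells, and 3.12 and 3.67 in Empty cells. The groups again did not overlap, and Ebf1-H240A replicate 2 gave the highest reading of its group for Vpreb2 as for Vpreb1. The difference of Ebf1-H240A from Ebf1wt was -3.55 ± 0.22 (SE, limma, adjusted p = 0.00121), the second largest decrease of the comparison. Against Empty, the fold was 17.6 with Ebf1-H240A (log2 difference 4.13 ± 0.25, limma adjusted p = 3.6e-05) and 206 with Ebf1wt (7.69 ± 0.25, adjusted p = 3.35e-06). The Empty readings lay just above the limit of detection. Because the genes are so alike, whether the Vpreb2 probe also binds Vpreb1 transcripts was not tested. The Vpreb1 and Vpreb2 probes themselves share no run of more than 5 bases. They lie at different transcript positions (643 and 31), so this does not bear on binding to Vpreb1 transcripts.

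**Figure D2:**
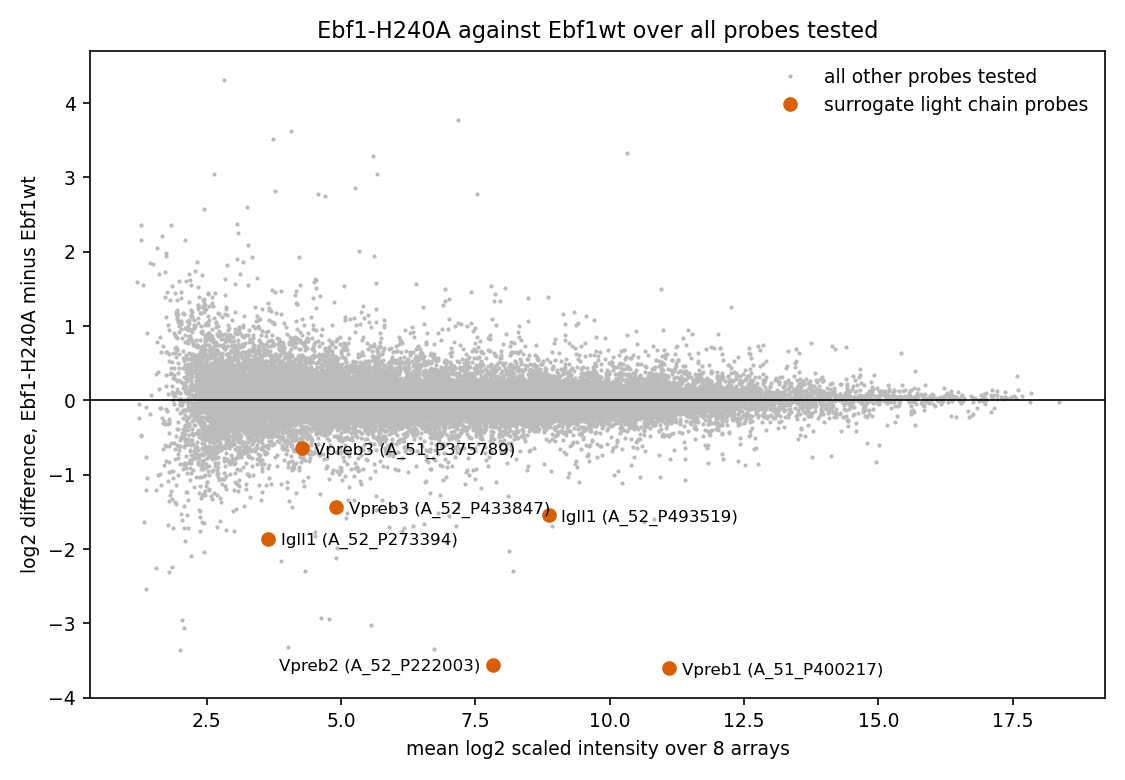
Log2 difference of Ebf1-H240A minus Ebf1wt (vertical axis) against the mean log2 scaled intensity over the 8 arrays (horizontal axis) for every probe tested, in grey, with the 6 surrogate light chain probes in orange. Vpreb1 (-3.60) and Vpreb2 (-3.55) lie at the bottom edge of all 24983 probes, the Igll1 probes (-1.55 and -1.86) and Vpreb3 A_52_P433847 (-1.43) lie below most probes of like intensity, and Vpreb3 A_51_P375789 (-0.64) lies near them.

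Other ways of processing the values left both genes near the top of that order. Over 24 settings, Vpreb1 ranked between 1 and 3 among decreases and held rank 1 in 19 of them. Vpreb2 ranked between 1 and 5 and held rank 1 or 2 in 20. Both reached their lowest rank within slide 2, where each comparison rests on 1 Ebf1-H240A array.

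Igll1 was bright in both groups with Ebf1 and was not well above background in Empty cells. Probe A_52_P493519 gave 10.76, 10.95 and 10.70 in Ebf1-H240A cells, 12.61, 12.20 and 12.24 in Ebf1wt cells, and 0.59 and 0.87 in Empty cells. Both Empty readings were not well above background, so only a lower bound can be given for the fold against Empty. The bound sets the mean of the bright group against the lowest signal called well above background on each Empty array. By it, and under the main processing alone, Igll1 was at least 319-fold higher with Ebf1-H240A and at least 933-fold higher with Ebf1wt. The fitted log2 differences were 10.07 with Ebf1-H240A (limma adjusted p = 2.68e-07) and 11.62 with Ebf1wt (adjusted p = 1.43e-07). Those p-values belong to the fitted differences and not to the bounds. At a floor of 8 the fitted differences were 7.80 and 9.35, and with normexp background correction 5.18 and 6.72. As folds these are smaller than the bounds. The difference of Ebf1-H240A from Ebf1wt was -1.55 ± 0.14 (SE, limma, adjusted p = 0.00332), with groups that did not overlap.

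The dimmer Igll1 probe showed the same order at a lower signal. A_52_P273394 read 3.50, 3.90 and 3.68 in Ebf1-H240A cells, 6.01, 5.39 and 5.25 in Ebf1wt cells, and 1.39 and 0.00 in Empty cells, where Empty replicate 2 was at the floor. Neither Empty reading was well above background. Under the main processing alone, Igll1 by this probe was at least 2.31-fold higher with Ebf1-H240A than in Empty cells. With Ebf1wt it was at least 8.39-fold higher. The fitted differences, and not these bounds, had limma adjusted p-values of 0.00137 with Ebf1-H240A and 0.00021 with Ebf1wt. At a floor of 8 the fitted differences were 0.70 with Ebf1-H240A and 2.55 with Ebf1wt. With normexp background correction they were 0.40 and 0.98. As folds these are smaller than the bounds. The difference of Ebf1-H240A from Ebf1wt was -1.86 ± 0.37 (SE, limma, adjusted p = 0.0371), or 27.6% of the Ebf1wt level (95% interval 15.1% to 50.4%). That call was lost when any 1 of the 6 Ebf1-H240A or Ebf1wt arrays was left out (differences -2.01 to -1.63, adjusted p 0.062 to 0.12), while the interval overlaps that of the brighter probe.

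**Figure D3:**
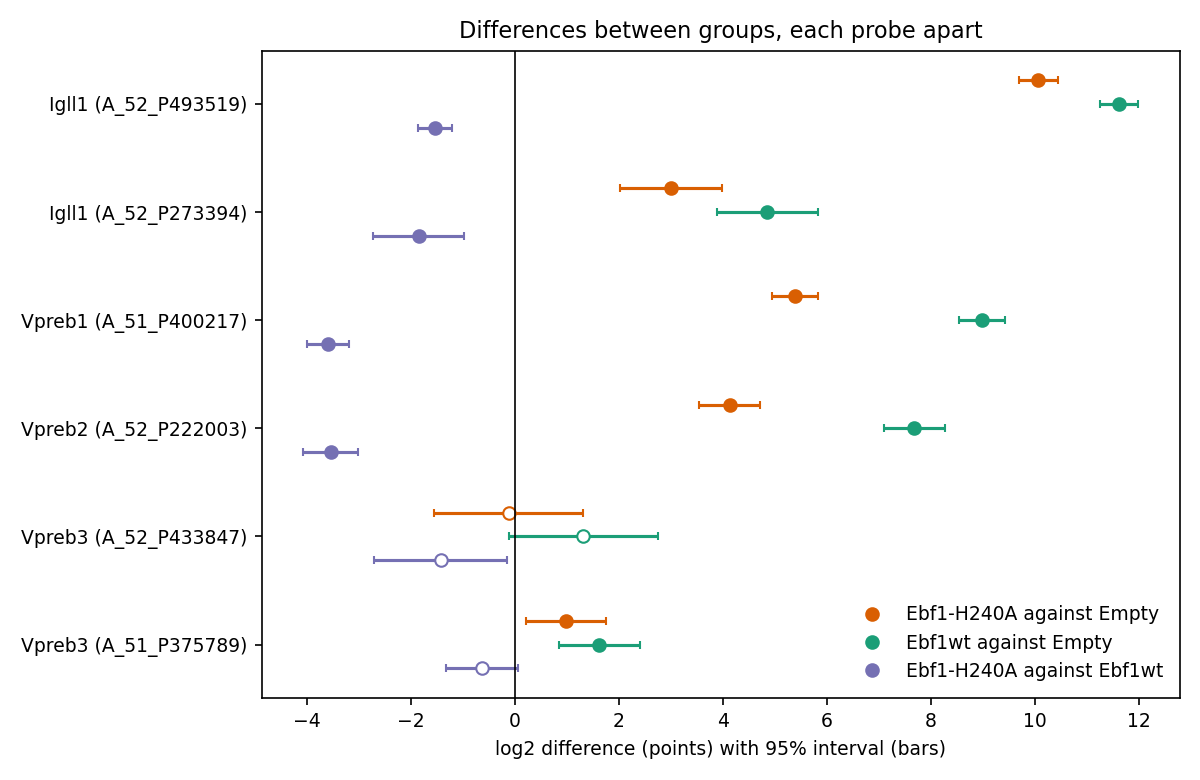
Log2 differences for each probe (points) with their 95% intervals (bars) for Ebf1-H240A against Empty, Ebf1wt against Empty and Ebf1-H240A against Ebf1wt. Filled points passed the threshold of the adjusted p and open points did not, and the Igll1 values against Empty are fitted over readings not well above background. Igll1, Vpreb1 and Vpreb2 lie far to the right of 0 against Empty and to the left of 0 for Ebf1-H240A against Ebf1wt, where Vpreb1 (-3.60) and Vpreb2 (-3.55) lie beyond both Igll1 probes (-1.55 and -1.86).

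The unequal reduction can be read within each array as the Vpreb1 signal minus that of the brighter Igll1 probe, a quantity that common scaling does not touch. It was 0.17, 0.47 and 0.26 in Ebf1-H240A cells, against 2.26, 2.45 and 2.36 in Ebf1wt cells. The 2 sets of values were far apart compared with their spread, with means of 0.30 ± 0.16 with Ebf1-H240A and 2.36 ± 0.09 with Ebf1wt (SD, n = 3 each). Their difference was -2.06, at an exact two-sided permutation p of 0.1, which is the smallest that 3 arrays against 3 can give. Taken with the dimmer Igll1 probe the difference was -1.75, and with the authors' normalized values -2.01. The difference was negative in every setting tried for it, left-out arrays included. The value compares changes and says nothing of which gene is the more abundant, since each probe has its own brightness.

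The arrays lay on 2 slides, each with all 3 groups. The differences of Vpreb1, Vpreb2 and the brighter Igll1 probe were of like size on both. Others were not: with Ebf1wt against Empty, Vpreb3 A_52_P433847 differed by 0.07 within slide 1 and 2.54 within slide 2. The dimmer Igll1 probe differed by 4.00 and 5.63. Within slide 1, with 2 Ebf1-H240A arrays and 1 Ebf1wt array, the differences of Ebf1-H240A from Ebf1wt were -3.48 for Vpreb1, -3.50 for Vpreb2 and -1.35 for Igll1 by its brighter probe. Within slide 2, with 1 Ebf1-H240A array and 2 Ebf1wt arrays, they were -3.78 for Vpreb1, -3.68 for Vpreb2 and -1.72 for Igll1. Fits of 4 arrays called no probe at all between Ebf1-H240A and Ebf1wt in either slide (limma, 0 of 24995, with 2359 and 2302 probes at an unadjusted p under 0.05), so the sizes are given as descriptions. Against Empty, the differences within slides 1 and 2 were 5.26 and 5.43 for Vpreb1 and 4.48 and 3.72 for Vpreb2 with Ebf1-H240A. With Ebf1wt they were 8.74 and 9.20 for Vpreb1 and 7.98 and 7.40 for Vpreb2. All of these Vpreb1 and Vpreb2 values against Empty were far above 0 on both slides.

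Vpreb3 was dim, and its 2 probes did not give the same picture. Probe A_52_P433847 read 4.34, 4.45 and 4.23 in Ebf1-H240A cells, 5.91, 5.76 and 5.67 in Ebf1wt cells, and 5.69 and 3.25 in Empty cells. All Ebf1-H240A readings lay below all Ebf1wt readings, but the Empty arrays lay on both sides of Ebf1-H240A and reached the Ebf1wt range. Since all arrays share an estimate of the spread, the wide Empty pair made every difference of this probe uncertain. The difference of Ebf1-H240A from Ebf1wt was -1.43 ± 0.54 (SE, limma, adjusted p = 0.189), from -2.72 to -0.15 by its 95% interval. When only the Ebf1-H240A and Ebf1wt arrays were fitted, the same difference had an adjusted p of 0.00389.

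For this Vpreb3 probe each Empty array decided the comparison with Empty. The log2 difference was -0.12 ± 0.61 with Ebf1-H240A (SE, limma, adjusted p = 0.889) and 1.31 ± 0.61 with Ebf1wt (adjusted p = 0.138). Without Empty replicate 1 the differences were 1.10 with Ebf1-H240A (limma adjusted p = 0.00295) and 2.53 with Ebf1wt (adjusted p = 0.000163). Without Empty replicate 2 they were -1.35 with Ebf1-H240A (limma adjusted p = 0.00142) and 0.09 with Ebf1wt (adjusted p = 0.666). The sign of the Ebf1-H240A value therefore turned with the Empty array used, and the lone Empty array is assumed to vary like the other groups.

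The other Vpreb3 probe lies nearer the start of the transcript. A_51_P375789 read 4.49, 4.65 and 3.68 in Ebf1-H240A cells, 4.63, 5.13 and 4.98 in Ebf1wt cells, and 3.61 and 2.98 in Empty cells. Ebf1-H240A and Ebf1wt overlapped, and both Empty readings were the lowest of the 8. The difference of Ebf1wt from Empty was 1.62 ± 0.33 (SE, limma, adjusted p = 0.00891), which missed the threshold without Empty replicate 2 (1.30, adjusted p = 0.0632). Ebf1-H240A differed from Empty by 0.98 ± 0.33 (limma adjusted p = 0.0489), a call that was lost under 15 of 22 alternatives. Between Ebf1-H240A and Ebf1wt the difference was -0.64 ± 0.29, from -1.34 to 0.05 by its 95% interval (limma adjusted p = 0.267).

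Against Empty, 5 of the 6 probes were called higher with Ebf1-H240A and 5 of 6 with Ebf1wt. The background was 19.8% of all probes called higher and 22.3% called lower for Ebf1-H240A against Empty (42.1% in either direction), and 15.6% higher and 20.2% lower for Ebf1wt against Empty (35.9% in either direction). These 2 comparisons share their Empty arrays. Scaling to the median in place of the 75th percentile moved the balance of calls: 3563 probes higher and 8270 lower for Ebf1-H240A against Empty, in place of 4957 and 5565, and 3080 higher and 7363 lower for Ebf1wt against Empty, in place of 3901 and 5056. For Ebf1-H240A against Ebf1wt it gave 594 higher and 771 lower, in place of 765 and 553. It shifted the median of all probes by -0.14, -0.10 and -0.04 in these comparisons, which is small beside the changes of Igll1, Vpreb1 and Vpreb2.

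The sequences upstream of the genes show how alike Vpreb1 and Vpreb2 are. In the 250 bases before each annotated start (RefSeq, GRCm38.p6), the 106 bases just before the start of Vpreb1 recur 250 to 145 bases before the start of Vpreb2, with 104 of 106 bases identical (98.1%). They are shown because the 2 genes moved together, with the bases that differ in capitals. The Vpreb1 stretch is chr16:16869256-16869361 on the minus strand and the Vpreb2 stretch is chr16:17980315-17980420 on the plus strand.
Vpreb1: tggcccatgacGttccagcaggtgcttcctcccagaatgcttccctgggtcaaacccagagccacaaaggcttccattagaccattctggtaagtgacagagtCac
Vpreb2: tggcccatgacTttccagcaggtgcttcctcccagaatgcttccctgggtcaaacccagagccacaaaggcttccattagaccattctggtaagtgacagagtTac
The 250 bases before the start of Igll1, at chr16:16863986-16864235 on the minus strand, are shown because Igll1 had the only match to the shorter EBF motif among the 4 genes. The match is in capitals, 231 to 224 bases before the start.
Igll1: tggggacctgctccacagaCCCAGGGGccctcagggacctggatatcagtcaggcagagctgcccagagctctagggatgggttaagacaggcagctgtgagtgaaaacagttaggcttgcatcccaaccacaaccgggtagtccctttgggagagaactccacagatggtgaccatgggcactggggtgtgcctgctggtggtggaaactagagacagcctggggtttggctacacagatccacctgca
Windows of the 250 bases before each start were searched on both strands, and bases after the start were not searched. The EBF core motif CCCNNGGG was found once at Igll1, not at the other genes, and in 11.8% of 32851 promoter windows of the same length. The full palindrome, with a further T before and A after that core, was in none of the 4 windows and in 0.779% of all windows. The E box CANNTG, bound by E proteins such as E2A, was found 3 times at Igll1, once at Vpreb1, 2 times at Vpreb2 and 5 times at Vpreb3, and was in 66.2% of all windows. A match is a description of these letters and not evidence of binding.

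Other genes of the pre-B cell receptor and its signalling were counted in the same comparisons. All 18 genes listed for the receptor complex and its signalling were measured, each by its brightest probe. With Ebf1-H240A against Empty, 9 were called higher and 2 lower (median log2 difference 0.24, against -0.00 over all genes). With Ebf1wt against Empty, 11 were called higher and 2 lower (median 0.47, against -0.04 over all genes). Between Ebf1-H240A and Ebf1wt, 2 were called higher, 3 lower and 13 were not called (median 0.06, against 0.02 over all genes). Of all probes, 3.06% were called higher and 2.21% lower in that comparison, 19.8% and 22.3% with Ebf1-H240A against Empty, and 15.6% and 20.2% with Ebf1wt against Empty.

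Cd79b, which encodes a signalling chain of the receptor, was among the genes most raised by EBF1 in this list. Its log2 signals were 14.67, 14.71 and 14.56 in Ebf1-H240A cells, 14.39, 14.36 and 14.52 in Ebf1wt cells, and 9.40 and 9.56 in Empty cells. The readings with Ebf1-H240A were slightly above those with Ebf1wt, and both lay far above Empty. Cd79b was 35.9-fold higher with Ebf1-H240A (limma adjusted p = 2.86e-07) and 30.7-fold higher with Ebf1wt (adjusted p = 4.33e-07), and the groups with Ebf1 differed by 0.23 ± 0.08 (adjusted p = 0.155). Its partner Cd79a was dim, at mean log2 signals of 3.22 with Ebf1-H240A, 3.26 with Ebf1wt and 2.35 in Empty cells, and differed from Empty by 0.87 with Ebf1-H240A and by 0.91 with Ebf1wt. These calls were lost under 12 of 22 alternatives with Ebf1-H240A and 9 of 22 with Ebf1wt.

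Ighm, which encodes the mu heavy chain that pairs with the surrogate light chain, was bright on every array. It read 13.80, 14.07 and 13.81 in Ebf1-H240A cells, 14.62, 14.56 and 14.73 in Ebf1wt cells, and 13.71 and 13.72 in Empty cells. The Ebf1wt arrays stood above all others. Ighm was lower with Ebf1-H240A than with Ebf1wt (log2 difference -0.75 ± 0.09, limma adjusted p = 0.00841) and differed from Empty by 0.17 with Ebf1-H240A (adjusted p = 0.211) and by 0.92 with Ebf1wt (adjusted p = 0.000657).

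The kinases and adaptors went both ways. Zap70, a kinase related to Syk, was lower with Ebf1-H240A than with Ebf1wt (-1.18 ± 0.16, limma adjusted p = 0.0121), a call lost under 4 of 23 alternatives: without Ebf1-H240A replicate 1 (-1.12, adjusted p = 0.052), with the replicate number as a block (-1.18, adjusted p = 0.0521) and within each slide. Syk itself, which couples the receptor to its signalling, was higher with Ebf1-H240A than with Ebf1wt by 0.41 ± 0.08 (limma adjusted p = 0.0336), and so was the adaptor Lcp2 by 0.64 ± 0.13 (adjusted p = 0.0362). The kinase gene Blk was the third called lower (-0.57, limma adjusted p = 0.0405). The calls of Syk, Lcp2 and Blk were lost under 13, 14 and 16 of 23 alternatives, which included leaving out single arrays. Bank1, a B cell scaffold, was higher by 1.43 with Ebf1-H240A (limma adjusted p = 5.92e-05) and by 1.38 with Ebf1wt (adjusted p = 8.49e-05), and Plcg2, a phospholipase downstream of the receptor, was higher by 0.68 with Ebf1-H240A (adjusted p = 0.000204) and by 0.52 with Ebf1wt (adjusted p = 0.000822). The adaptors Lcp2 and Dapp1 fell against Empty. Lcp2 fell by 1.42 with Ebf1-H240A (limma adjusted p = 0.000351) and by 2.06 with Ebf1wt (adjusted p = 8.17e-05), and Dapp1 fell by 0.61 with Ebf1-H240A (adjusted p = 0.00141) and by 0.84 with Ebf1wt (adjusted p = 0.000442).

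**Figure D4:**
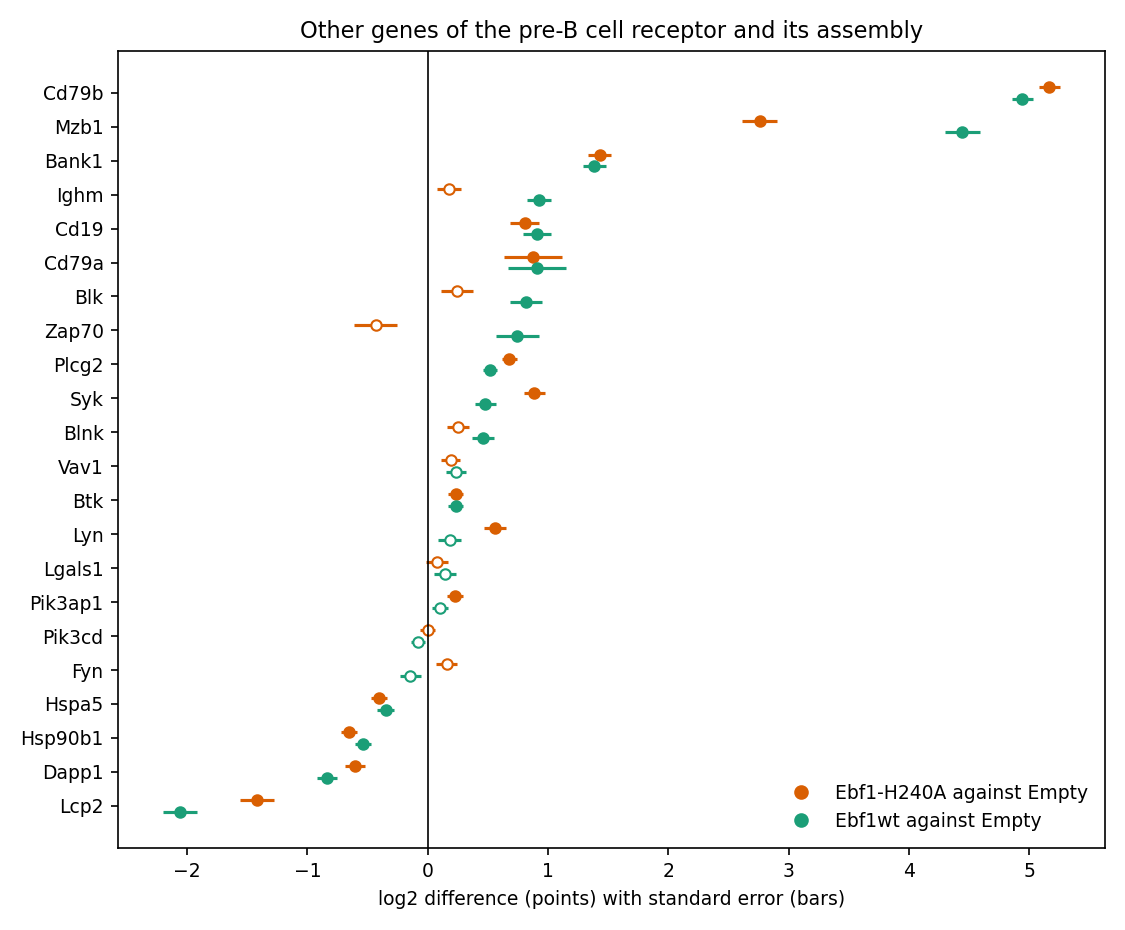
Log2 differences from Empty (points) with their standard errors (bars) for the other genes of the pre-B cell receptor, its signalling and its assembly, with Ebf1-H240A in orange above Ebf1wt in green. Filled points passed the threshold of the adjusted p and open points did not. Cd79b lies at 5.17 with Ebf1-H240A and 4.94 with Ebf1wt, Mzb1 at 2.76 with Ebf1-H240A and 4.44 with Ebf1wt, and the remaining genes between -2.06 and 1.43.

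Of the 4 genes listed for assembly and ligand, Mzb1 stood nearest to the surrogate light chain genes in its behaviour. It encodes a chaperone of the endoplasmic reticulum that assists immunoglobulin assembly. Mzb1 read 8.91, 9.19 and 8.88 in Ebf1-H240A cells, 10.88, 10.62 and 10.54 in Ebf1wt cells, and 6.36 and 6.12 in Empty cells, so the groups did not overlap. It was 6.77-fold higher than Empty with Ebf1-H240A (limma adjusted p = 2.03e-05) and 21.7-fold higher with Ebf1wt (adjusted p = 3.41e-06), and Ebf1-H240A differed from Ebf1wt by -1.68 ± 0.13 (adjusted p = 0.00206). The general chaperones Hspa5 and Hsp90b1 fell instead, Hspa5 at -0.40 with Ebf1-H240A (limma adjusted p = 0.00363) and -0.35 with Ebf1wt (adjusted p = 0.0083), and Hsp90b1 at -0.65 with Ebf1-H240A (adjusted p = 0.000397) and -0.54 with Ebf1wt (adjusted p = 0.00112). The Hspa5 call with Ebf1wt was lost under 5 of 23 alternatives, among them normexp background correction (-0.21, limma adjusted p = 0.198) and leaving out Empty replicate 2 (-0.31, limma adjusted p = 0.0568). Lgals1, a ligand of the pre-B cell receptor made by stromal cells, was not called in any comparison. The conventional light chain genes Igkc, Iglc1, Iglc2 and Iglc3 were not on the array under those symbols.

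Of 18 listed transcriptional regulators of these genes 17 were measured, and Pax5 was not. With Ebf1-H240A against Empty, 6 were called higher and 6 lower, beside 19.8% and 22.3% of all probes. With Ebf1wt against Empty, 6 were called higher and 5 lower, beside 15.6% and 20.2% of all probes. Pou2af1, a coactivator of octamer-binding factors, was the single regulator called between Ebf1-H240A and Ebf1wt, beside 5.28% of all probes called in either direction. Its log2 signals were 3.35, 3.76 and 3.97 in Ebf1-H240A cells, 4.69 to 5.01 in Ebf1wt cells, and 2.98 and 3.28 in Empty cells, near the limit of detection. It was lower with Ebf1-H240A than with Ebf1wt (log2 difference -1.18 ± 0.18, limma adjusted p = 0.0161), a call lost under 6 of 22 alternatives, one of them leaving out Ebf1wt replicate 1 (-1.11, adjusted p = 0.0661). Spib, an ETS factor, was higher by 1.66 with Ebf1-H240A (limma adjusted p = 2.72e-05) and by 1.84 with Ebf1wt (adjusted p = 2.16e-05). Lef1, an HMG-box factor that acts with beta-catenin, was lower with Ebf1-H240A (difference -2.61, limma adjusted p = 1.9e-05) and with Ebf1wt (-2.55, adjusted p = 2.56e-05). Sox4 fell by 1.26 with Ebf1-H240A (limma adjusted p = 0.000199) and by 0.90 with Ebf1wt (adjusted p = 0.00105), and Bach2 fell by 0.88 with Ebf1-H240A (adjusted p = 0.00033) and by 0.67 with Ebf1wt (adjusted p = 0.00129).

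The genes next to the members on the chromosome were examined by the same fit. Of 18 such genes, 2 were called higher and 3 lower with Ebf1-H240A than with Ebf1wt, beside 3.06% and 2.21% of all probes. Beside Igll1 and Vpreb1, none of Yars2, Dnm1l, Spag6l, Top3b and Ppm1f was called between Ebf1-H240A and Ebf1wt by limma, and their differences ran from -0.25 to -0.01. Spag6l was higher than in Empty cells by 2.23 with Ebf1-H240A (limma adjusted p = 0.000814) and by 2.48 with Ebf1wt (adjusted p = 0.000646). Beside Vpreb2, 3 genes were called between Ebf1-H240A and Ebf1wt and not all in the direction of Vpreb2, while Ess2, Gsc2 and Zdhhc8 were not called. Slc25a1, which encodes the mitochondrial citrate carrier, was lower with Ebf1-H240A (-0.64 ± 0.10, limma adjusted p = 0.0173). Dgcr6 (0.25 ± 0.05, limma adjusted p = 0.0427) and Prodh, which encodes proline dehydrogenase (1.50 ± 0.08, adjusted p = 0.000863), were higher. Prodh was higher than Empty by 5.24 with Ebf1-H240A and by 3.74 with Ebf1wt. Beside Vpreb3, Mmp11 (-1.08, limma adjusted p = 0.0147) and Chchd10 (-0.82, adjusted p = 0.00539) were lower with Ebf1-H240A than with Ebf1wt. Smarcb1, Zfp280b, Slc5a4b and Prmt2 were not called in that comparison.

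Markers of other cells that the cultures could hold also moved between the groups, often in both directions within a list. Against these counts stand 19.8% of all probes called higher and 22.3% lower with Ebf1-H240A against Empty, and 15.6% and 20.2% with Ebf1wt against Empty. Of 10 stromal genes 8 were measured (not Pdgfra and Lum), of which 5 were called higher than Empty with Ebf1-H240A and 3 with Ebf1wt, and none lower. None of the 8 was at 0, but Dcn was well above background on only 1 Ebf1-H240A, 2 Ebf1wt and 1 Empty array. The log2 of their summed intensity, in which Pdgfrb weighs most, was 11.14 to 11.22 with Ebf1-H240A, 10.81 to 11.01 with Ebf1wt and 9.75 to 9.82 in Empty cells. The sums of the other lists were formed likewise. Between Ebf1-H240A and Ebf1wt, Pdgfrb alone of these stromal genes was called, higher with Ebf1-H240A by 0.41 (limma adjusted p = 0.036). That call was lost under 15 of 23 alternatives. In that comparison 3.06% of all probes were called higher and 2.21% lower.

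Of 5 myeloid genes 4 were measured, and 2 were called higher and 2 lower with Ebf1-H240A, and 1 higher and 2 lower with Ebf1wt. Mpo differed from Empty by -1.49 with Ebf1-H240A and -2.95 with Ebf1wt, and Itgam by -1.45 with Ebf1-H240A and -1.66 with Ebf1wt, whereas Csf1r was higher in both groups, by 1.42 with Ebf1wt. The sum, in which the bright Lyz2 weighs most, was 14.68 to 15.12 with Ebf1-H240A, 13.97 to 14.43 with Ebf1wt and 14.14 to 14.45 in Empty cells. Of 5 T-cell genes 4 were measured, and 1 was called higher and 2 lower with each of Ebf1-H240A and Ebf1wt. Cd8a was not well above background in Empty cells and was at least 20.2-fold higher with Ebf1-H240A (limma adjusted p = 0.000132) and at least 23.0-fold higher with Ebf1wt (adjusted p = 0.000138), whereas Cd3g, the brightest of the list, was lower in both groups. The T-cell sum was 10.05 to 10.19 with Ebf1-H240A, 9.97 to 10.09 with Ebf1wt and 11.48 to 11.61 in Empty cells. Between Ebf1-H240A and Ebf1wt, Mpo alone of these myeloid and T-cell genes was called, higher with Ebf1-H240A by 1.47 (limma adjusted p = 0.0126). That call was lost under 4 of 23 alternatives.

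All 6 progenitor genes were measured, and 1 was called higher and 4 lower with Ebf1-H240A, and 2 higher and 3 lower with Ebf1wt. Kit, the marker used to enrich the cells, averaged 9.47 with Ebf1-H240A, 9.81 with Ebf1wt and 10.60 in Empty cells. Cd34 differed from Empty by -1.17 with Ebf1-H240A and -1.93 with Ebf1wt, and Il7r by -1.45 with Ebf1-H240A and -1.09 with Ebf1wt. The sum, in which the bright Ly6a weighs most, was 16.33 to 16.42 with Ebf1-H240A, 16.36 to 16.46 with Ebf1wt and 16.24 to 16.27 in Empty cells. Of 6 genes of the committed B lineage 5 were measured (not Pax5), and 3 were called higher and 1 lower with Ebf1-H240A, and 4 higher and none lower with Ebf1wt. Ms4a1, which encodes CD20, was at least 66.9-fold higher than Empty with Ebf1-H240A (limma adjusted p = 1.03e-05) and at least 28.1-fold higher with Ebf1wt (adjusted p = 3.31e-05). Between Ebf1-H240A and Ebf1wt it differed by 1.25 (limma adjusted p = 0.0368), a call lost under 11 of 22 alternatives, among them leaving out any 1 of these 6 arrays. The sum, in which Cd72 weighs most, was 10.50 to 10.69 with Ebf1-H240A, 10.56 to 10.92 with Ebf1wt and 10.83 to 10.89 in Empty cells. Of 5 hepatocyte genes only Trf was measured, and it was not called between Ebf1-H240A and Ebf1wt. In that comparison Cd34 was higher by 0.75 (limma adjusted p = 0.00763), and Flt3 (-0.66, adjusted p = 0.0123) and Il7r (-0.36, adjusted p = 0.0354) were lower. The Flt3 and Il7r calls were lost under 5 and 14 of 23 alternatives. The remaining progenitor genes were not called there, nor were the B-lineage genes apart from Ms4a1. The part of these shifts in the results on the surrogate light chain genes was not tested.

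The genes whose signal over the 8 arrays was most like each member were found by the distance between centred log2 signals, as a description. Vpreb1 was nearest to Vpreb2 (distance 1.71, r = 0.994), and Igll1 lay farther from Vpreb1 (5.17). Outside the 4 genes, Igll1 was nearest to Col26a1 (distance 2.29, r = 0.986), which encodes a collagen and differed by 0.15 between Ebf1-H240A and Ebf1wt. Vpreb1 was nearest to Tnnt2 (2.57, r = 0.970), which encodes cardiac troponin T, and Vpreb2 to Scgb1c1 (2.34, r = 0.990). None of these 3 genes was well above background in Empty cells. Vpreb3 by its brighter probe was nearest to Ssc5d (1.47, r = 0.824). All these correlations are over 8 arrays of 3 groups, and a correlation of this kind mostly follows the differences between groups.

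**Figure D5:**
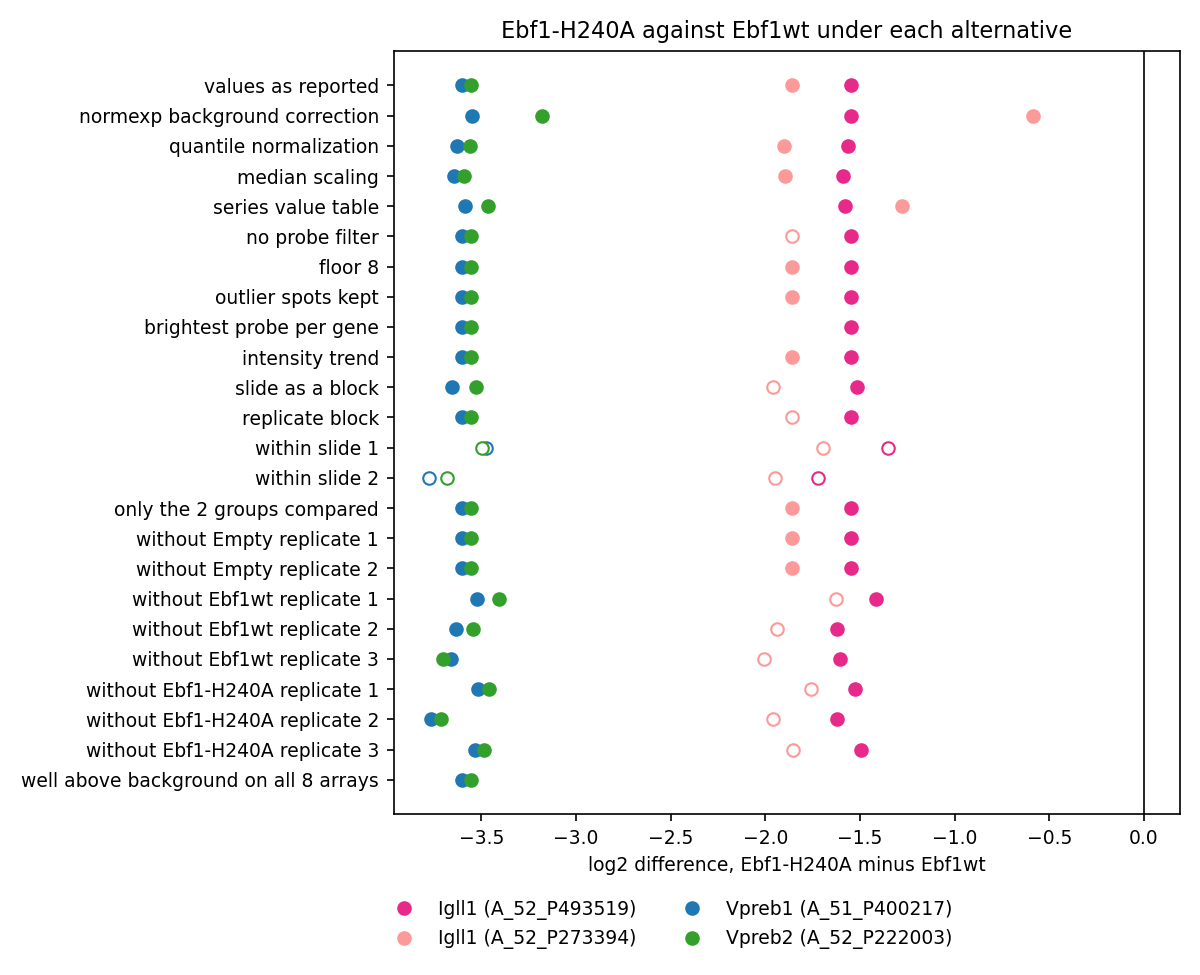
Log2 difference of Ebf1-H240A minus Ebf1wt (horizontal axis) for the Igll1, Vpreb1 and Vpreb2 probes under the values as reported and each alternative setting (vertical axis). Filled points passed the threshold of the adjusted p and open points did not. Every point lies left of 0, Vpreb1 and Vpreb2 stay between -3.78 and -3.18, and the dimmer Igll1 probe moves most, to -0.59 with normexp background correction.

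The choice of background correction changed the sizes of the differences. With normexp correction, which compresses dim signals, the differences of Ebf1-H240A from Ebf1wt were -3.55 for Vpreb1, -3.18 for Vpreb2, -1.55 for Igll1 by its brighter probe and -0.59 by its dimmer probe. Against Empty with the same correction, Vpreb1 differed by 4.34 with Ebf1-H240A and 7.89 with Ebf1wt, and Vpreb2 by 1.92 with Ebf1-H240A and 5.10 with Ebf1wt. Igll1 by its brighter probe differed by 5.18 with Ebf1-H240A, in place of 10.07, and by 6.72 with Ebf1wt, in place of 11.62. By its dimmer probe Igll1 differed by 0.40 with Ebf1-H240A and 0.98 with Ebf1wt. The order of the groups was thus kept for these probes, while the folds against Empty depend on how dim signals are treated.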

How the data were processed

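Total RNA of 8 samples was labelled with Cy3 from 0.2 ug of RNA and hybridised to one-colour Agilent arrays, per the labels' protocols. The submitters' processing notes name Agilent Feature Extraction 10.5.1.1 as the source of the deposited array files. The deposited processed signal is an intensity after removal of spatial trends, per the file headers, and flags mark spots well above background or outliers. The value table, as deposited, holds log2 values normalized between arrays by a method not given in the sources used here, with centring unstated, and served only as an alternative.

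Intensities were scaled to a common 75th percentile and values under 1 were set to 1 before log2. Outlier spots were dropped and spots of a probe averaged. Probes well above background on at least 2 of 8 arrays were kept (25007), and 24 that lacked a value on some array were left out. Probes were named through a RefSeq gene table (GRCm38.p6): 27902 through accessions, 5449 through symbols and 370 through earlier symbols, while 7453 kept the name in the file. Of the 6 probes described here 5 were named by accession.

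Groups were compared by limma (version 3.58.1, R 4.3.3) in a single moderated fit of all 8 arrays without covariates (5 residual and 1.94 prior degrees of freedom), with Benjamini-Hochberg adjustment over 24983 probes and a threshold of 0.05. Folds against a group with no array well above background are bounds ("at least") under the main processing alone. The p-values beside them are those of the fitted differences. The number of arrays limits the precision. The fit was tested on simulated data. By name, the text gives all probes of the 4 genes, the called members of each list with the 4 smallest adjusted p-values per comparison, the 3 measured genes on each side of each member (1 is not reported here), and genes of like signal. Blk and Cd79a, and regulators and markers beyond this rule, were chosen after their values were seen. The members, lists and tests were chosen with earlier results of these data known. Alternatives covered background correction, scaling, filter, floor, outlier spots, probe choice, variance model, slide, replicate block and left-out arrays.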

Additional observations from a re-analysis of the deposited data

How the results depend on the processing

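Under every alternative run, the Igll1, Vpreb1 and Vpreb2 probes kept the direction of their 3 differences. Against Empty, the calls of the brighter Igll1 probe and of Vpreb1 held under each of them, and that of Vpreb2 under all but Ebf1-H240A within slide 2 (3.72, adjusted p = 0.0591). Between Ebf1-H240A and Ebf1wt these 3 probes lost their call within slides 1 and 2 alone. The dimmer Igll1 probe lost its call between Ebf1-H240A and Ebf1wt under 11 of 21 alternatives, and against Empty with Ebf1-H240A at a floor of 8 (fitted value 0.70, adjusted p = 0.0523) and within slide 2 (3.68), and with Ebf1wt within slide 1 (4.00). Vpreb3 A_52_P433847 turned its sign for Ebf1-H240A against Empty with normexp (0.12), within slide 2 (0.99) and without Empty replicate 1 (1.10, the highest without single arrays, against -1.35 without Empty replicate 2, the lowest), where the cause was not tested.

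Of the 6 probes, those called for Ebf1-H240A against Empty, for Ebf1wt against Empty and for Ebf1-H240A against Ebf1wt numbered 3, 3 and 2 when probes had to be well above background on all arrays, which left 4 probes. With 1 probe per gene the first 2 counts were 3 each, and a floor of 8 gave 3 for Ebf1-H240A against Empty. Within slides, fewer arrays gave 2 in slide 2 for Ebf1-H240A against Empty, 3 in slide 1 for Ebf1wt against Empty, and 0 in both for Ebf1-H240A against Ebf1wt. Leaving out single arrays gave 4 to 5 for Ebf1-H240A against Empty, 4 to 6 for Ebf1wt against Empty and 3 to 5 for Ebf1-H240A against Ebf1wt.

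Over all probes, 10522 were called for Ebf1-H240A against Empty (1422 and 500 within slides 1 and 2), 8957 for Ebf1wt against Empty (5930 with normexp, 180 and 609 within slides, 5593 without Empty replicate 1 and 5896 without Empty replicate 2, up to 8526 without single other arrays) and 1318 for Ebf1-H240A against Ebf1wt. The last was 856 with the deposited value table, 372 with no filter, 2224 with an intensity trend, 774 with slide as a block, 0 within each slide and 466 to 978 without single arrays. It fell to 492 without Ebf1wt replicate 2, 479 without Ebf1-H240A replicate 1 and 482 without Ebf1-H240A replicate 3, and was lowest without Ebf1wt replicate 1. With the replicate number as a block it was 477, and the calls were 8457 for Ebf1-H240A against Empty and 6751 for Ebf1wt against Empty. Same-numbered Ebf1-H240A and Ebf1wt arrays deviated with r = 0.14, -0.20 and 0.08. With so few pairs, some of them on a shared slide, these values cannot tell if the numbers mark a pairing. Under the block the dimmer Igll1 probe lost its call between Ebf1-H240A and Ebf1wt (-1.86, adjusted p = 0.0781), as did Vpreb3 A_51_P375789 for Ebf1-H240A against Empty (1.11, adjusted p = 0.0688). The difference of Vpreb1 minus Igll1 ran from -2.14 to -1.99 without single arrays.

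Few arrays, and dim Igll1 and Vpreb3 readings near the limit of detection, restrict what these values can show.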
